A study of Mus musculus with 4 samples.

Results

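The genes that hold T cells in a lymph node or let them leave it are described here as 7 members: the sphingosine-1-phosphate (S1P) receptors S1pr1 and S1pr4, the transcription factor gene Klf2, the chemokine receptor gene Ccr7, the retention gene Cd69, and the integrin genes Itgae and Itgb7. They were chosen by symbol, and they are 7 of the 32285 genes in the tables. The study sorted live T cells out of lymph nodes that drained an MC38-OVA tumour, grown in mice from a colon carcinoma line that carries ovalbumin, and sequenced their RNA. There were 4 single-cell 5' libraries, 1 per group: WT-CTRL (control genotype, control treatment), WT-DOX (control genotype, doxorubicin), KO-CTRL (PD-L1 knockout, control treatment) and KO-DOX (PD-L1 knockout, doxorubicin). Every group carried the tumour. The knockout removes PD-L1 from dendritic cells only, per the series' design text, and the sources used here do not give the Cre line, the number and age of the mice in a library, the dose or the times. Doxorubicin is an anthracycline that damages DNA.

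The libraries held 10372 to 12959 barcodes and 37754389 to 47081849 UMIs (unique molecular identifiers, each standing for 1 captured RNA molecule). T cell receptor or CD3 transcripts marked 46158 cells as T cells, with a median of 3048.5 to 3133 UMIs in the libraries. A gene's UMIs summed over the cells of a set, per 1000000 UMIs of the same cells, are given as CPM. In all, 1283 barcodes occurred in more than 1 library, 175 to 271 in each pair, and leaving those cells out changed no call of a member. Cd274, which encodes PD-L1, was at 67.1, 84.0, 65.5 and 82.5 CPM in the T cells of WT-CTRL, KO-CTRL, WT-DOX and KO-DOX, and sorted T cells do not check a deletion made in dendritic cells. With 1 library per group no test between groups exists. The intervals in parentheses are 95% intervals, exact Poisson for CPM, exact binomial for ratios and exact Clopper-Pearson for shares, and cover counting error only.

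As background, T cells enter a lymph node from blood with the help of CCR7, and leave it into lymph along a gradient of S1P that S1PR1 senses. KLF2 switches on the gene for S1PR1 in resting T cells. After activation, CD69 binds S1PR1 and takes it off the cell surface, and KLF2 is turned down, so the cell stays for a time. The integrin chains encoded by Itgae and Itgb7 pair into an integrin that binds E-cadherin on epithelial cells. The Itgae chain, CD103, marks many tissue-resident T cells. The Itgb7 chain also pairs with the chain encoded by Itga4 into a gut-homing integrin.

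Levels were read in all T cells and in 4 gates set by genes outside the members. Naive CD4 cells (3852 cells) and naive CD8 cells (12484 cells) had no UMI of Ccl5, S100a4, Pdcd1 or Foxp3. The Ccl5-positive CD8 cells (1113 cells) had at least 2 UMIs of Ccl5, and Foxp3-positive cells (706 cells) at least 1 UMI of Foxp3 with no CD8 or Ccl5 UMI. Between 59.0% and 62.7% of T cells in a library fell in no gate. Marker genes that were not used for gating were read beside the names. The regulatory list (Il2ra, Ikzf2, Ctla4, Tnfrsf18, Tnfrsf4) summed to 3375 to 3774 CPM in Foxp3-positive and 294 to 386 CPM in naive CD4 cells. The effector or memory list (Cxcr3, Nkg7, Ly6c2, Xcl1, Il2rb) summed to 2753 to 3163 CPM in Ccl5-positive CD8, 970.2 to 1069 in naive CD8 and 35.7 to 66.2 in naive CD4 cells, with 688 to 759.8 CPM in all T cells. Naive CD8 cells were thus above the T cell level of this list, against their name. The naive list (Lef1, Tcf7, Igfbp4, Dapl1) summed to 2384 to 2573 CPM in naive CD4, 1823 to 1988 in naive CD8, 896 to 1070.3 in Ccl5-positive CD8 and 343 to 482 in Foxp3-positive cells, with 1718 to 1898 CPM in all T cells, so that the naive CD8 range overlapped that of all T cells. Among 164 B cells in the sort, 0 held an Itgae UMI, which allows a share of up to 1.83% by a limit of 3 counts and has an upper Clopper-Pearson limit of 2.22%. The other members were present there, from 9.15% of B cells for S1pr4 to 84.1% for Klf2, so a share of cells with a UMI of these genes does not mark a T cell.

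By the mean over libraries, S1pr1, Klf2 and Ccr7 were highest in the naive gates and lowest in the Foxp3-positive cells, whereas Itgae and Itgb7 were highest in the Foxp3-positive cells. For S1pr1 the Foxp3-positive and Ccl5-positive CD8 ranges overlapped, and in KO-CTRL the Foxp3-positive cells were the higher of the pair. Over the 16 gate sums, 4 gates in 4 libraries, log2(CPM + 1) of Klf2 and Ccr7 correlated with r = 0.94, of S1pr1 and Ccr7 with r = 0.85, and of S1pr1 and Itgae with r = -0.68. These points share libraries, so the correlations are a description. The plot of levels by gate and library shows each of these sums.

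**Figure D1:**
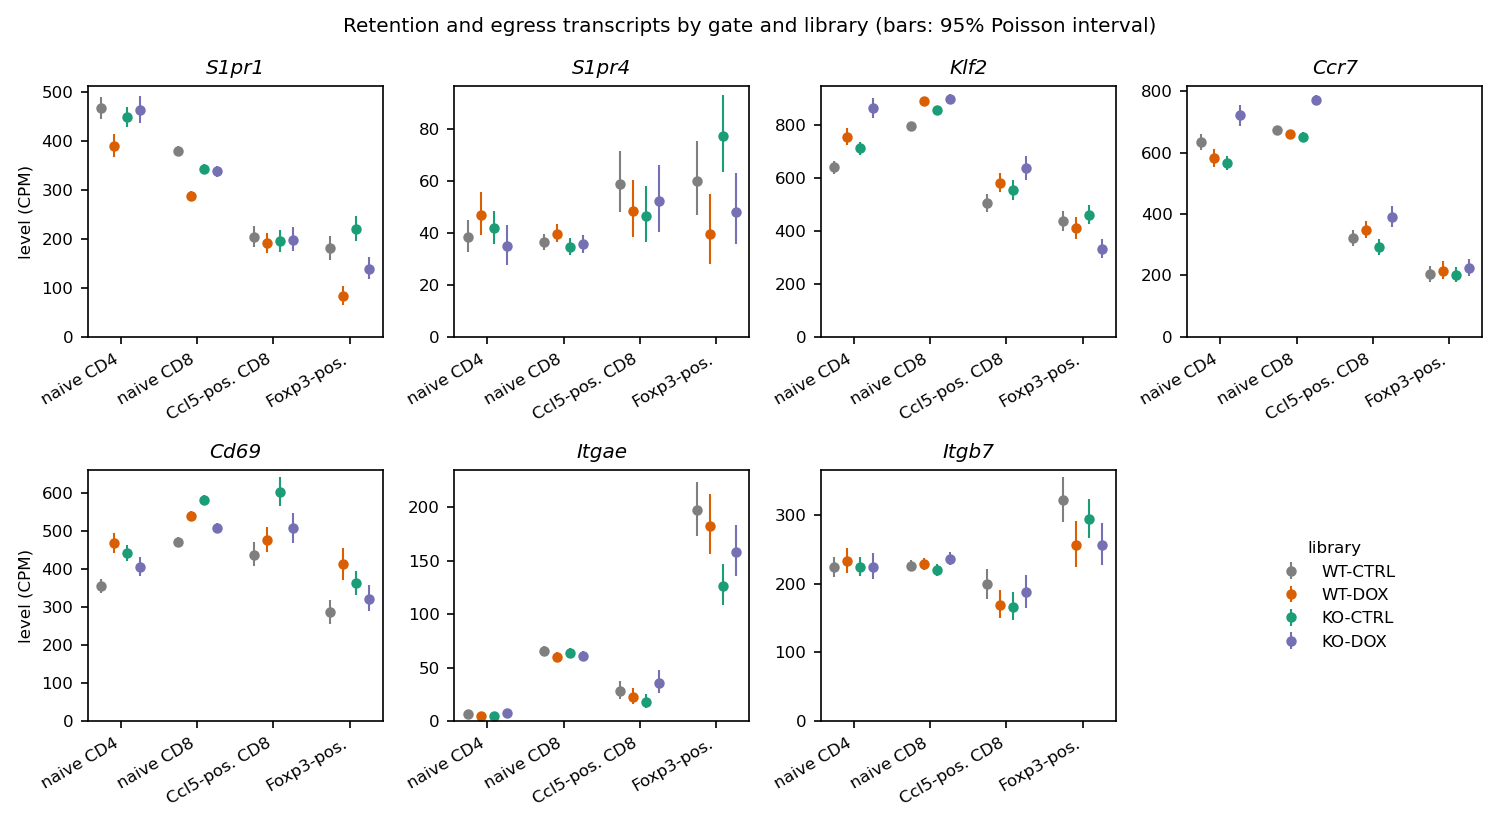
Level of each member in CPM (y axis, scale set for each panel) in the 4 gates (x axis), with 1 point per library and bars for the exact Poisson 95% interval of the count. S1pr1, Klf2 and Ccr7 sit highest in a naive gate, and Itgae sits highest in Foxp3-positive cells in all 4 libraries.

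The gates were compared with edgeR's quasi-likelihood test on the sums, with the library as a block and Benjamini-Hochberg adjustment over all genes tested. The test asks whether a difference between gates exceeds its variation over the 4 libraries, which differ in genotype and treatment. Between naive CD8 and naive CD4 cells, 4 members were higher and 1 was lower among 7 tested, where 29.2% of all genes tested were called. Between Ccl5-positive and naive CD8 cells, 1 member was higher and 5 were lower of 7, with 39% of all genes called. Between Foxp3-positive and naive CD4 cells, 3 were higher and 4 lower of 7, with 57.7% of all genes called. Being called was thus common among all genes in the last contrast, and the counts there are read against that share. Itgae is among the members called higher in both contrasts with naive CD4 cells. It was under 10 CPM in those cells and could enter these tests through the other gate, so these 2 calls are not read as support. The composition scaling moved the median of all genes by 0.10, 0.073 and -0.17 on the log2 scale in the 3 contrasts, and every called member kept its direction and its call when scaled by total UMIs instead. Per-cell depth also differs between gates, so each contrast was refitted on cells thinned to 2000 UMIs, shallower cells left out, and without the deepest 5% of barcodes.

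S1pr1 (chr3:115710433-115715072, minus strand, GRCm38) encodes the receptor that senses S1P in lymph and is needed for T cells to exit. Naive CD4 cells held 466, 447, 389 and 462 CPM in WT-CTRL, KO-CTRL, WT-DOX and KO-DOX. In naive CD8 cells it was at 379, 342, 288 and 337 CPM in the same order of libraries. The lowest library of naive CD4 cells was above the highest of naive CD8 cells, so the CPM ranges of these gates did not overlap. The gap was narrow, 389 against 379 CPM, with counting intervals that overlapped. At equal depth the shares of cells with an S1pr1 UMI overlapped, at 49.8% to 57.6% in naive CD4 and 41.3% to 50.8% in naive CD8 cells. Ccl5-positive CD8 cells held 204, 195, 190.5 and 198 CPM, a narrow range below both naive gates. Foxp3-positive cells held 180.5, 220.1, 82.7 and 139 CPM, the widest spread of any gate, and overlapped only with the Ccl5-positive CD8 range. The mean over libraries was 441 ± 35.8, 337 ± 37.3, 197 ± 5.55 and 155 ± 58.8 CPM (SD, n = 4) in naive CD4, naive CD8, Ccl5-positive CD8 and Foxp3-positive cells.

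S1pr1 fell by 1.63 on the log2 scale from naive CD4 to Foxp3-positive cells (SE 0.10, edgeR adjusted p = 2.73e-14), and by 1.39 at equal depth. From naive to Ccl5-positive CD8 cells the edgeR log2 fold change was -0.70 (SE 0.090, adjusted p = 2.62e-07). Between the naive gates the edgeR change was -0.29 (SE 0.074, adjusted p = 0.00353), lower in CD8 cells, and -0.33 at equal depth. That call was lost with DESeq2 (adjusted p = 0.0672), in edgeR without the library block (adjusted p = 0.0818) and in edgeR with looser naive gates (-0.13, adjusted p = 0.199).

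WT-DOX was the library with the lowest S1pr1 in all 4 gates. At equal depth, the share of Foxp3-positive cells with an S1pr1 UMI was 32.0% (25.1% to 39.5%) in WT-CTRL, 32.3% (25.7% to 39.4%) in KO-CTRL, 18.8% (12.7% to 26.4%) in WT-DOX and 20.9% (14.4% to 28.8%) in KO-DOX. Both doxorubicin libraries were below both control-treatment libraries in this gate. In naive CD8 cells the shares at equal depth were 50.8% (49.1% to 52.5%), 46.3% (44.5% to 48.1%), 41.3% (39.5% to 43.1%) and 46.6% (44.7% to 48.5%) in the same order. There WT-DOX stood below the other 3 libraries, and KO-DOX lay close to KO-CTRL.

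S1pr4 (chr10:81497747-81500132, minus strand) encodes another S1P receptor, found mainly on blood and lymphoid cells. It was at 38.4, 41.7, 47.0 and 34.8 CPM in the naive CD4 cells of WT-CTRL, KO-CTRL, WT-DOX and KO-DOX. Naive CD8 cells held 36.4, 34.6, 39.7 and 35.5 CPM, Ccl5-positive CD8 cells 58.8, 46.4, 48.4 and 52.2 CPM, and Foxp3-positive cells 59.9, 77.2, 39.7 and 48.1 CPM. Each gate overlapped with the next in the order of levels, from Foxp3-positive at the top to naive CD8 at the bottom. The Ccl5-positive and naive CD8 ranges did not overlap, and the edgeR change between them was 0.56 (SE 0.12, adjusted p = 4.24e-04). At equal depth that call was lost, at 0.30 (adjusted p = 0.208) in edgeR. The rise from naive CD4 to Foxp3-positive cells, 0.36 (SE 0.14, adjusted p = 0.0328) in edgeR, was not seen at equal depth (-0.012, adjusted p = 0.975), lost without the deepest barcodes (0.086, adjusted p = 0.739) and lost with DESeq2 (adjusted p = 0.0612). It was also lost in edgeR without WT-CTRL (adjusted p = 0.124), without KO-CTRL (adjusted p = 0.431) and without KO-DOX (adjusted p = 0.0506). Between the naive gates the edgeR change was -0.045 (SE 0.10, adjusted p = 0.794), not past the threshold.

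Klf2 (chr8:72319033-72321656, plus strand) encodes the factor that keeps S1pr1 on in resting T cells. Naive CD8 cells held 798, 858, 891 and 901 CPM in WT-CTRL, KO-CTRL, WT-DOX and KO-DOX. Naive CD4 cells held 641, 713, 757 and 866 CPM, with a range that overlapped that of naive CD8 cells. Ccl5-positive CD8 cells held 506, 555, 584 and 638 CPM and Foxp3-positive cells 438, 462, 411 and 334 CPM. Both were below the naive gates in every library, and their ranges did not overlap each other. Klf2 was higher in naive CD8 than naive CD4 cells by 0.32 (SE 0.064, adjusted p = 2.58e-04) in edgeR, and higher in CD8 in each of the 4 libraries. It fell by 0.53 on the log2 scale from naive to Ccl5-positive CD8 cells (SE 0.069, edgeR adjusted p = 3.20e-07). From naive CD4 to Foxp3-positive cells the edgeR change was -1.0 (SE 0.076, adjusted p = 2.56e-12). This difference was smaller at equal depth, -0.48 (adjusted p = 1.80e-09) in edgeR, and without the deepest barcodes, -0.36 (adjusted p = 1.90e-06). KO-DOX had the highest Klf2 of the 4 libraries in 3 gates and the lowest in Foxp3-positive cells.

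KLF-family factors bind GC-rich CACCC elements, so that motif was counted in the promoters that the RefSeq table for GRCm38.p6 holds, for 3 of the 7 members. The 250 bases before the start that RefSeq gives are shown for these 3, to let the motif be read in place, with each CACCC or its reverse complement GGGTG in capitals. Klf2 (chr8:72318812-72319061, plus strand) and S1pr4 (chr10:81500138-81500387, minus strand) held 1 match each, and Itgb7 (chr15:102231936-102232185, minus strand) held 4. The gene positions given with each member are from GENCODE M21, whose gene bounds reach 29 bases into the Klf2 window and 9 bases into the Itgb7 window. The 1 match of Klf2 and 1 of the 4 of Itgb7 lie in these bases, inside the GENCODE gene.
Klf2: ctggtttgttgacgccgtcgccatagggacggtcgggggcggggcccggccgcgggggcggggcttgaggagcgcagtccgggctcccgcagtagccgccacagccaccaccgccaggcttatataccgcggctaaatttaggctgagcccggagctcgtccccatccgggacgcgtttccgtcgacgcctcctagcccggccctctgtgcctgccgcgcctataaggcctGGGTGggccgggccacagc
S1pr4: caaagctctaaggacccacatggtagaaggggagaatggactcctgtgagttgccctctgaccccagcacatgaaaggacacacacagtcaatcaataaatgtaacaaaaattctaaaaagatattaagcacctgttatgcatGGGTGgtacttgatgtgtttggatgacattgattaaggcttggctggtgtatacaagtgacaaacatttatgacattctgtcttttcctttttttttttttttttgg
Itgb7: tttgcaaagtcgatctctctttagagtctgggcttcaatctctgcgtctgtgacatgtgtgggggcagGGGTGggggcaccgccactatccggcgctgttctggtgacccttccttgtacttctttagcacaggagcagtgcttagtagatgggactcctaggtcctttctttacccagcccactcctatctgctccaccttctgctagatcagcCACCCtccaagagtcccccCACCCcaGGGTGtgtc
At least 1 match was found in 52.0% of 32851 RefSeq windows of the same length, with a median of 1, and at least 3 in 6.53%. The GC content was 71.2% for Klf2, 38.8% for S1pr4 and 56% for Itgb7. A match of 5 letters describes the sequence and is not a binding site.

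Ccr7 (chr11:99144196-99155077, minus strand) encodes the chemokine receptor that brings T cells into the node and holds them in its T cell zone. Naive CD8 cells held 672, 651, 660.2 and 769.6 CPM in WT-CTRL, KO-CTRL, WT-DOX and KO-DOX. Naive CD4 cells held 634, 565, 581 and 721 CPM, overlapping with naive CD8 cells. Ccl5-positive CD8 cells held 321, 292, 349 and 392 CPM and Foxp3-positive cells 204, 203, 216 and 225 CPM, each below the gate above it with no overlap. In every gate KO-DOX was the highest library and KO-CTRL the lowest. In Foxp3-positive and Ccl5-positive CD8 cells the counting intervals of KO-CTRL against WT-CTRL and of KO-DOX against WT-DOX reached 0. In Foxp3-positive cells so did that of KO-DOX against KO-CTRL, at 0.15 (-0.11 to 0.40) on the log2 scale, so the order there is within counting error. Ccr7 fell by 1.72 on the log2 scale from naive CD4 to Foxp3-positive cells (SE 0.057, edgeR adjusted p = 9.28e-21), and by 1.35 at equal depth. The edgeR change from naive to Ccl5-positive CD8 cells was -0.95 (SE 0.049, adjusted p = 1.10e-15), and that from naive CD4 to naive CD8 cells 0.24 (SE 0.043, adjusted p = 5.54e-05).

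Cd69 (chr6:129267325-129275436, minus strand) encodes the lectin that pulls S1PR1 from the surface and is induced soon after T cell receptor or interferon signals. Naive CD8 cells held 471, 581, 538 and 506 CPM in WT-CTRL, KO-CTRL, WT-DOX and KO-DOX. Ccl5-positive CD8 cells held 437, 601, 476 and 506 CPM, naive CD4 cells 354, 442, 468 and 405 CPM and Foxp3-positive cells 285, 362, 411 and 321 CPM. The range of each gate overlapped with the next, and WT-CTRL was the lowest library in all 4 gates. Within libraries, naive CD8 cells exceeded naive CD4 cells in 4 of 4, and the edgeR change was 0.44 (SE 0.051, adjusted p = 5.59e-08). Cd69 fell by 0.44 from naive CD4 to Foxp3-positive cells in edgeR (SE 0.062, adjusted p = 3.79e-07), by 0.24 at equal depth, and by 0.059 without the deepest barcodes, where the call was lost (adjusted p = 0.506). The share of cells with a Cd69 UMI at equal depth overlapped, at 36.6% to 53.0% in Foxp3-positive and 40.4% to 48.4% in naive CD4 cells. Between Ccl5-positive and naive CD8 cells the edgeR change was 0.017 (SE 0.053, adjusted p = 0.840). It became a rise past the threshold at equal depth, 0.14 (adjusted p = 0.0465), and without the deepest barcodes, 0.26 (adjusted p = 5.36e-06).

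Itgae (chr11:73090583-73147446, plus strand) encodes CD103, the alpha chain of the integrin that binds E-cadherin. Its ranges over the libraries did not overlap between any gates. Foxp3-positive cells held 197, 126, 183 and 158 CPM in WT-CTRL, KO-CTRL, WT-DOX and KO-DOX. Naive CD8 cells held 65.7, 63.6, 59.9 and 60.7 CPM and Ccl5-positive CD8 cells 27.9, 17.7, 22.4 and 35.8 CPM. Naive CD4 cells held only 6.15, 4.31, 4.74 and 7.13 CPM. The edgeR log2 fold change was 4.74 (SE 0.16) from naive CD4 to Foxp3-positive cells and 5.60 at equal depth. From naive CD4 to naive CD8 cells it was 3.61 (SE 0.15) in edgeR. With under 10 CPM in naive CD4 cells, Itgae could enter both tests through the other gate, so these folds are not read as support. Itgae was lower in Ccl5-positive than naive CD8 cells, at -1.23 (SE 0.13, adjusted p = 1.18e-08) in edgeR, and further below at equal depth (-1.59) and without the deepest barcodes (-1.98). The gene Haspin lies within Itgae without overlapping its exons.

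Itgb7 (chr15:102215995-102231944, minus strand) encodes the beta chain that pairs with CD103 and is also part of the gut-homing integrin. Foxp3-positive cells held 322, 294, 257 and 257 CPM in WT-CTRL, KO-CTRL, WT-DOX and KO-DOX, above the other gates in every library. Naive CD8 cells held 226, 220.3, 229 and 237 CPM and naive CD4 cells 224, 225, 233 and 225 CPM, which overlapped. Ccl5-positive CD8 cells held 199, 167, 169 and 188 CPM, below both. Itgb7 fell by 0.26 from naive to Ccl5-positive CD8 cells in edgeR (SE 0.064, adjusted p = 0.00147), by 0.52 at equal depth and by 0.67 without the deepest barcodes. The rise from naive CD4 to Foxp3-positive cells was 0.16 (SE 0.067, adjusted p = 0.0395) in edgeR, and the call was lost at equal depth (0.11, adjusted p = 0.366), without the deepest barcodes (adjusted p = 0.0602), without the library block (adjusted p = 0.0575), without WT-CTRL (adjusted p = 0.303) and without KO-CTRL (adjusted p = 0.201). The edgeR change between the naive gates was 0.11 (SE 0.055, adjusted p = 0.139), and it passed the threshold with looser naive gates (0.20, adjusted p = 0.00291).

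**Figure D2:**
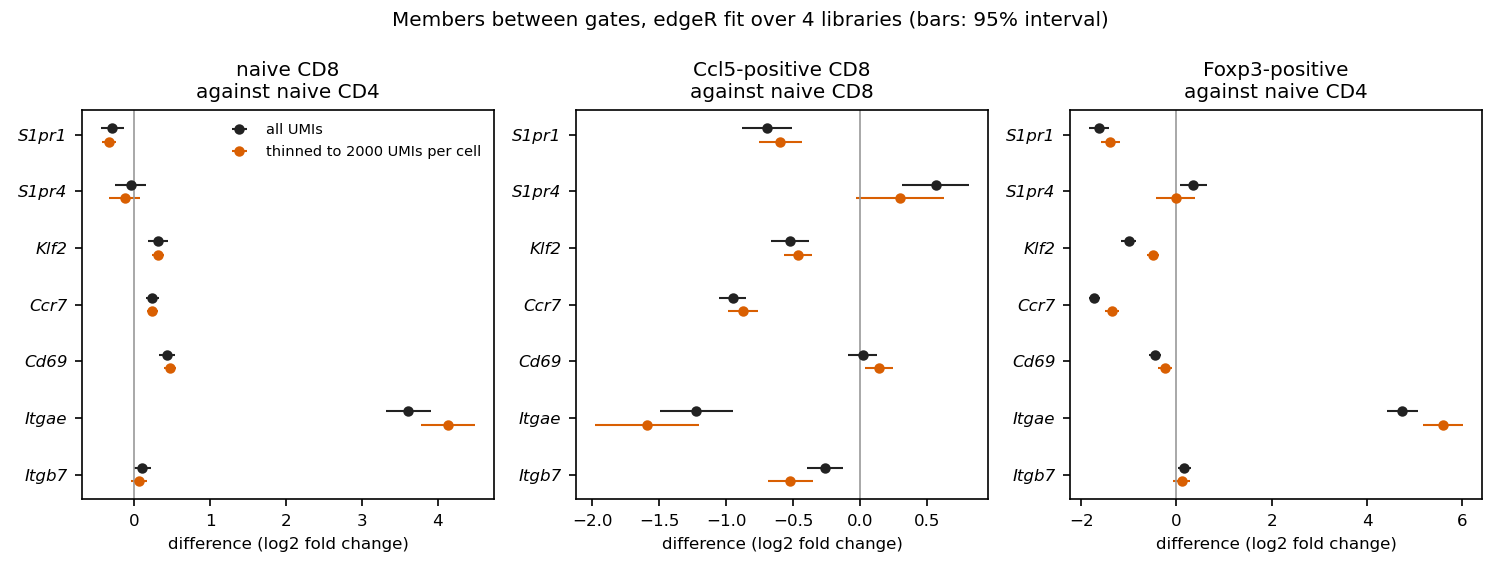
Log2 fold change of each member (x axis) between gates in 3 contrasts (panels, x scales differ), black for the edgeR fit over 4 libraries with its 95% confidence interval and orange for the fit on cells thinned to 2000 UMIs. Ccr7 at -1.72 is the black point farthest below 0 in the contrast of Foxp3-positive with naive CD4 cells, where S1pr4 lies near 0 once cells are thinned. Itgae at 4.74 in that contrast rests on under 10 CPM in naive CD4 cells.

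Genes around the members were read from lists, with gating genes left out, and the counts on all UMIs are set against the 57.7%, 39% and 29.2% of all genes called in Foxp3-positive against naive CD4, Ccl5-positive against naive CD8 and naive CD8 against naive CD4 cells. At equal depth fewer genes were called, 2826 in place of 5591 in the first of these contrasts and 1822 in place of 3776 in the second. Counts at equal depth are therefore not set against those shares. Of the FOXO1 and KLF2 programme, 5 of 5 tested genes were lower in Foxp3-positive than naive CD4 cells in edgeR, with a median log2 fold change of -1.24 where the median of all genes was -0.025. They included Foxp1 at -1.67, Il7r, the interleukin-7 receptor gene, at -1.59, and Klf3 at -1.24. At equal depth 3 of 5 were lower. In Ccl5-positive against naive CD8 cells 3 of 5 were lower and 1 higher, with Foxp1 at -0.50, Foxo1 at -0.42 and Il7r at 0.16. Between naive CD8 and naive CD4 cells 2 were higher and 2 lower of 5.

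Of the S1P signalling list, 4 of 9 tested genes were higher and 2 lower in Foxp3-positive than naive CD4 cells, with S1pr2, a receptor that restrains migration, at 1.08, Gnai2 at 0.24, Rac2 at 0.22 and Arrb2 at -0.56. S1pr2 was under 10 CPM in every gate sum. At equal depth 2 of 8 were higher and 1 lower. In naive CD8 against naive CD4 cells 1 of 9 was higher and 2 lower, and 1 and 1 of 8 at equal depth. In Ccl5-positive against naive CD8 cells 1 of 9 was higher and none lower, and 1 and 1 of 8 at equal depth. Of 22 tested homing, integrin and motility genes, 12 were higher and 5 lower in Foxp3-positive than naive CD4 cells, and 9 and 4 at equal depth. The integrin gene Itga4, whose chain is the other partner of the Itgb7 chain, was at -1.63 and Stk4 at -1.03. Several chemokine receptor genes were near 0 in 1 of the gates compared and could enter the test through the other gate, so their levels are given in place of folds and the counts of this list are not read as support. Ccr2 was at 70.7 to 148 CPM in Foxp3-positive and 2.10 to 3.33 CPM in naive CD4 cells, and Ccr6 at 13.3 to 19.4 and 0.24 to 2.51 CPM. In Ccl5-positive against naive CD8 cells 11 of 22 were higher and 5 lower, and 8 and 4 at equal depth, with Itga4 at -1.0 and Ccr2 at 21.0 to 38.5 against 0.081 to 0.796 CPM. In naive CD8 against naive CD4 cells 4 of 22 were higher and 10 lower, and 5 and 9 at equal depth. The gut-homing receptor gene Ccr9 was at 69.2 to 75.6 CPM in naive CD8, 1.83 to 12.7 CPM in Ccl5-positive CD8 and 1.46 to 3.77 CPM in naive CD4 cells, higher in naive CD8 cells than in both other gates, as Itgae was. Of 7 TGF-beta related genes, 2 were higher and 3 lower in Foxp3-positive than naive CD4 cells, with a median of -0.099 and with the receptor genes Tgfbr1 at 1.21 and Tgfbr2 at -1.65. At equal depth 3 were higher and 2 lower, with a median of 0.054. In Ccl5-positive against naive CD8 cells 2 were higher and 2 lower, and 1 and 1 at equal depth. In naive CD8 against naive CD4 cells 5 of 7 were lower and none higher, at equal depth too. Values without a unit are log2 fold changes from edgeR.

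Other markers that differed between the gates are given beside these contrasts. Of the B cell markers, Ighm was at 424 to 527 CPM in Foxp3-positive and 157 to 171 CPM in naive CD4 cells. In Foxp3-positive cells Ms4a1 was at 0 in every library, Cd79a at 0 to 2.15 CPM and Cd79b at 3.57 to 14.8 CPM. The dendritic or myeloid list (Flt3, Itgax, H2-Aa, Lyz2, Csf1r) summed to 6.11 to 122 CPM in Ccl5-positive CD8 cells and 1.07 to 2.77 CPM in Foxp3-positive cells, with Csf1r at 0 in both. Their part in the results was not tested.

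Within Foxp3-positive cells, those with an Itgae UMI held less Klf2, Ccr7 and S1pr1 RNA. There were 237 cells with and 469 without an Itgae UMI. Klf2 was at 611, 545, 536 and 407 CPM in Itgae-negative cells of WT-CTRL, KO-CTRL, WT-DOX and KO-DOX, and at 250.1, 269.9, 234 and 222 CPM in Itgae-positive cells. Ccr7 was at 265, 248, 280.0 and 251 CPM in Itgae-negative and 137, 99.4, 125 and 184 CPM in Itgae-positive cells. For both genes every Itgae-positive value lay below every Itgae-negative value. S1pr1 was at 244, 246, 98.8 and 156 CPM in Itgae-negative and 111, 161, 59.8 and 112 CPM in Itgae-positive cells, lower in each library although the ranges overlapped. S1pr4 lay the other way, at 55.9, 73.7, 31.1 and 45.9 CPM in Itgae-negative and 64.3, 85.2, 52.0 and 51.3 CPM in Itgae-positive cells, higher in each library, and the edgeR change of 0.25 (SE 0.20, adjusted p = 0.598) did not pass the threshold.

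The edgeR log2 fold change was -1.14 (SE 0.12, adjusted p = 2.43e-05) for Klf2, -0.99 (SE 0.15, adjusted p = 6.87e-04) for Ccr7 and -0.79 (SE 0.16, adjusted p = 0.00434) for S1pr1. These 3 of 6 members tested were called, all lower, where 5.86% of all genes were called. Itgae-positive cells were deeper, with library medians of 5075 to 5969 UMIs against 3317 to 3712. All cells were thinned to 2000 UMIs and Itgae was read from the thinned UMIs. The changes were then -1.44, -1.26 and -1.71, all past the threshold (edgeR adjusted p = 1.58e-09, 2.74e-05 and 1.22e-05). Thinning also left out shallower cells and moved cells to the negative side. It left 156 Itgae-positive cells, 36 to 44 in a library, and 480 Itgae-negative cells. At 2000 UMIs per cell the Itgae-positive sums are small, so the thinned S1pr1 change rests on few UMIs. Without the deepest barcodes the edgeR changes were -1.72, -1.32 and -1.73. Cd69 was called there too, at -0.39 (adjusted p = 0.0430). The S1pr1 call was lost without the library block, at an edgeR adjusted p = 0.0634. Leaving out 1 library in turn gave -1.21 to -1.08 for Klf2, -1.17 to -0.88 for Ccr7 and -0.87 to -0.64 for S1pr1.

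Itgb7, the partner chain, was at 291, 289, 179 and 225 CPM in Itgae-negative and 356, 308, 367 and 306 CPM in Itgae-positive Foxp3-positive cells. It was higher with Itgae in each library, yet the edgeR change of 0.40 (SE 0.15, adjusted p = 0.142) did not pass the threshold. Among listed genes at equal depth in edgeR, the inflammatory chemokine receptor genes Ccr2 and Cxcr3 were higher in Itgae-positive cells, at 1.76 and 1.24, as was Il7r at 0.86. Foxp1 was lower at -1.19, and so were the immediate early genes Jun at -1.32 and Fos at -0.79.

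In naive CD8 cells the split by Itgae gave smaller differences. Klf2 and Cd69 were lower in the 2291 Itgae-positive than in the 10193 Itgae-negative cells, at -0.17 and -0.15, and Ccr7 and Itgb7 were higher, at 0.10 and 0.12 (edgeR adjusted p = 1.34e-07, 8.43e-05, 0.00187 and 0.0247). These were 4 of 6 members tested, with 9.04% of all genes called. None of the 4 calls held without the library block, where 2 members had an unadjusted p under 0.05, and none held at equal depth, where Klf2, Cd69, Ccr7 and Itgb7 were at -0.035, -0.12, 0.073 and 0.10. Without the deepest barcodes all 4 held, at -0.082, -0.14, 0.11 and 0.12, and S1pr1 was called too, at 0.14 (edgeR adjusted p = 1.17e-04). With total-UMI scaling the same 5 were called, with S1pr1 at 0.13 (edgeR adjusted p = 0.00484). The Itgb7 call was lost when any 1 library was left out (0.0510, 0.108, 0.0620 and 0.0735 as edgeR adjusted p without WT-CTRL, KO-CTRL, WT-DOX and KO-DOX). At equal depth S1pr1 alone was called, at 0.19 (adjusted p = 0.00764) in edgeR. Ccr9, at 0.64, Cxcr6, at 0.48, and Itga4, at 0.33, were higher in Itgae-positive naive CD8 cells at equal depth, and Gpr183 was lower at -0.34.

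**Figure D3:**
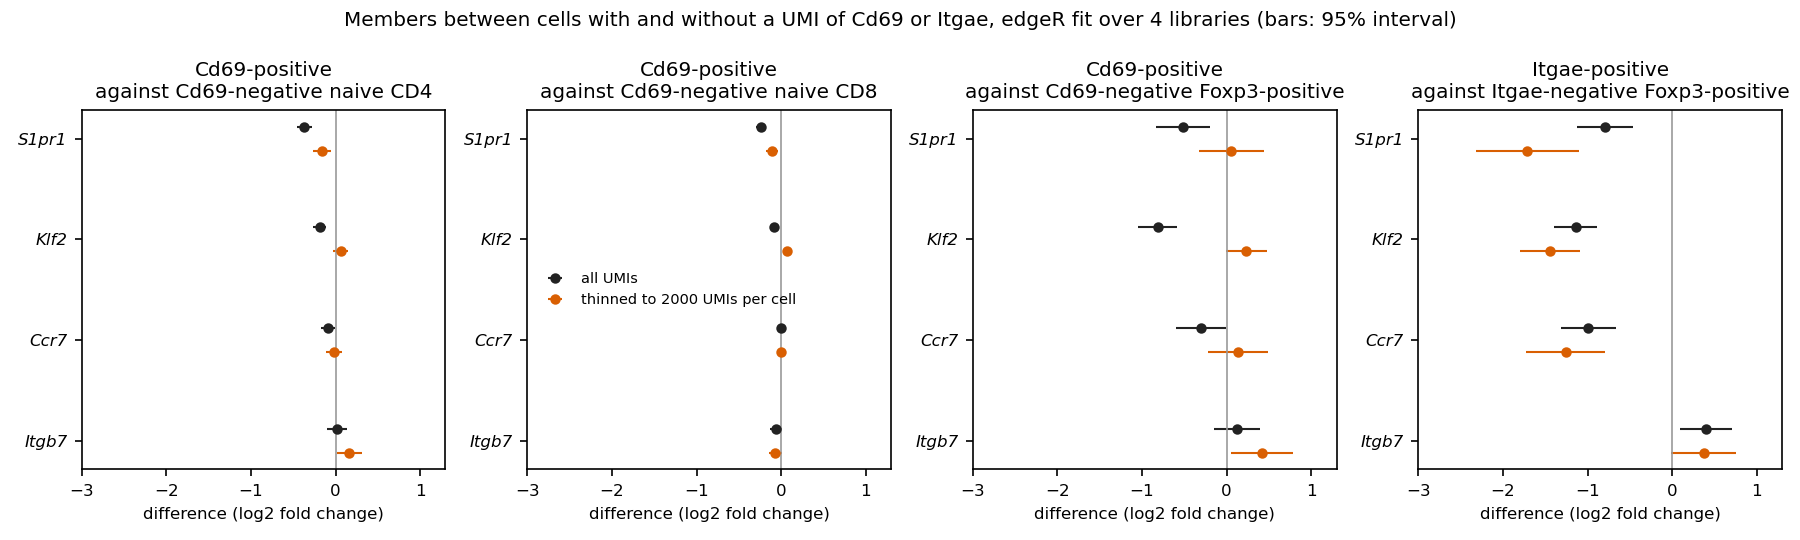
Log2 fold change of S1pr1, Klf2, Ccr7 and Itgb7 (x axis) between cells with and without a UMI of Cd69 or of Itgae in 4 of the splits (panels), black for the edgeR fit with its 95% confidence interval and orange for the fit on cells thinned to 2000 UMIs. Klf2, Ccr7 and S1pr1 stay left of 0 in the Itgae split of Foxp3-positive cells when thinned, while S1pr1 and Klf2 in the Cd69 splits move towards or past 0.

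Cd69 splits asked whether cells with Cd69 RNA held less S1pr1 RNA, and the calls made on all UMIs were lost once cells were thinned. In naive CD4 cells S1pr1 and Klf2 were lower in Cd69-positive cells, at -0.37 and -0.19 (edgeR adjusted p = 1.36e-08 and 5.45e-04), 2 of 5 members tested with 7.11% of all genes called. In naive CD8 cells they were lower at -0.24 and -0.081 (edgeR adjusted p = 4.80e-09 and 0.0102), 2 of 6 members with 5.44% of all genes called. In Foxp3-positive cells S1pr1, Klf2 and Itgae were lower at -0.51, -0.82 and -0.57 in edgeR, 3 of 6 members with 9.42% of all genes called. In Ccl5-positive CD8 cells 0 of 6 members were called by edgeR, with 2.36% of all genes called. There 1, Itgb7 at 0.51 (SE 0.15, adjusted p = 0.0805) in edgeR, had an unadjusted p under 0.05, and DESeq2 called 0. Itgb7 passed without KO-DOX (adjusted p = 0.0479) and with total-UMI scaling. The S1pr1 call in Foxp3-positive cells was lost without any 1 library, and that of Itgae without WT-CTRL (adjusted p = 0.0869) or KO-CTRL (adjusted p = 0.221). The Klf2 call in naive CD8 cells was lost without KO-DOX (adjusted p = 0.211).

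Cells with a Cd69 UMI were deeper in each of these gates. In Foxp3-positive cells the library medians were 4318.5 to 5005 UMIs with and 2690.5 to 3121 without a Cd69 UMI, and in naive CD4 cells 3101 to 3319.5 and 2805 to 2998. When cells were thinned to 2000 UMIs and split again, edgeR called 0 members in each of the 4 gates, with 2, 2, 1 and 1 members at an unadjusted p under 0.05 in naive CD4, naive CD8, Ccl5-positive CD8 and Foxp3-positive cells. Of all genes only 34, 63, 13 and 13 were then called in the same order of gates, in place of 609, 563, 150 and 604. The loss of calls is thus not particular to the members. Thinning also left out shallower cells and moved cells from the positive to the negative side, so that 1569 in place of 2141 naive CD4 cells were Cd69-positive, and which of these changes took the calls away was not tested. S1pr1 was then at -0.16 (adjusted p = 0.259) in naive CD4, -0.11 (adjusted p = 0.146) in naive CD8 and 0.058 (adjusted p = 0.981) in Foxp3-positive cells. Klf2 turned to 0.059, 0.065 and 0.23 in the same gates. DESeq2 was not run on thinned cells. Early T cell receptor response genes were higher in Cd69-positive cells of the naive gates before and after thinning. In naive CD4 cells 8 of 9 tested were higher before and 6 of 9 at equal depth, with Fosb at 1.06, Fos at 0.67 and Jun at 0.50 in the thinned edgeR fit, and in naive CD8 cells 9 of 10 before and 8 of 9 after, with Fosb at 0.87, Fos at 0.59 and Egr1 at 0.55. In Ccl5-positive CD8 cells 0 of 9 were called before and 1 of 9, Fos at 0.49, was higher at equal depth. In Foxp3-positive cells none of 9 was higher and 2 were lower before, with a median of -0.22, and 2 of 8 were higher at equal depth, Fos at 0.56 and Junb at 0.36.

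S1pr1 was also read along the Klf2 level of single naive cells, all thinned to 2000 UMIs. In naive CD8 cells S1pr1 was at 241 to 349.9 CPM over the libraries in cells with no Klf2 UMI and at 396 to 489.8 CPM in cells with 4 or more. In naive CD4 cells the values were 328 to 437 CPM and 518 to 660.0 CPM. The ranges of these end bins did not overlap in either gate. The share of all genes whose end bins lie apart was not computed, so the separation is not read as particular to S1pr1. Cells of a bin come from the same libraries and no test was made.

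The libraries were then compared with each other, as log2 of the ratio of CPM + 1, with a size of 0.32 or more counted. The background is the share of all genes of at least 10 CPM past the same size. The 4 comparisons share libraries, so their values are set side by side and not used to support each other. In all T cells S1pr1 was at 356, 325, 283 and 312 CPM in WT-CTRL, KO-CTRL, WT-DOX and KO-DOX, highest in WT-CTRL and lowest in WT-DOX. Cd69 was at 421, 516, 509 and 454 CPM, low in WT-CTRL and high in WT-DOX and KO-CTRL. Ccr7 was at 540.5, 509.6, 561 and 622 CPM, with KO-DOX above the other 3. Klf2 was at 647, 701, 785 and 746 CPM, lowest in WT-CTRL. S1pr4 was at 38.9, 39.0, 39.8 and 37.2 CPM and Itgb7 at 215, 203, 217 and 212 CPM, and neither passed the size in any of the 4 comparisons. Itgae was at 45.8, 37.8, 42.7 and 40.5 CPM.

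In WT-DOX against WT-CTRL 1 of 7 members passed the size in T cells, with 3.82% of all genes past it. It was S1pr1, lower at -0.33 (-0.37 to -0.30). The change was -0.30 with median-of-ratios scaling, just under the size. Klf2 was higher by less than the size, at 0.28 (0.26 to 0.30), and so was Cd69, at 0.28 (0.25 to 0.30). In KO-DOX against KO-CTRL 0 of 7 passed, with 1.31% of all genes past the size. Ccr7 was at 0.29 (0.26 to 0.31), Cd69 at -0.18 (-0.21 to -0.16) and S1pr1 at -0.060 (-0.10 to -0.024). In KO-CTRL against WT-CTRL 0 of 7 passed, with 1.86% past it, and the largest changes were Cd69 at 0.29 (0.27 to 0.32) and Itgae at -0.27 (-0.37 to -0.18). In KO-DOX against WT-DOX 0 of 7 passed, with 4.58% past it.

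**Figure D4:**
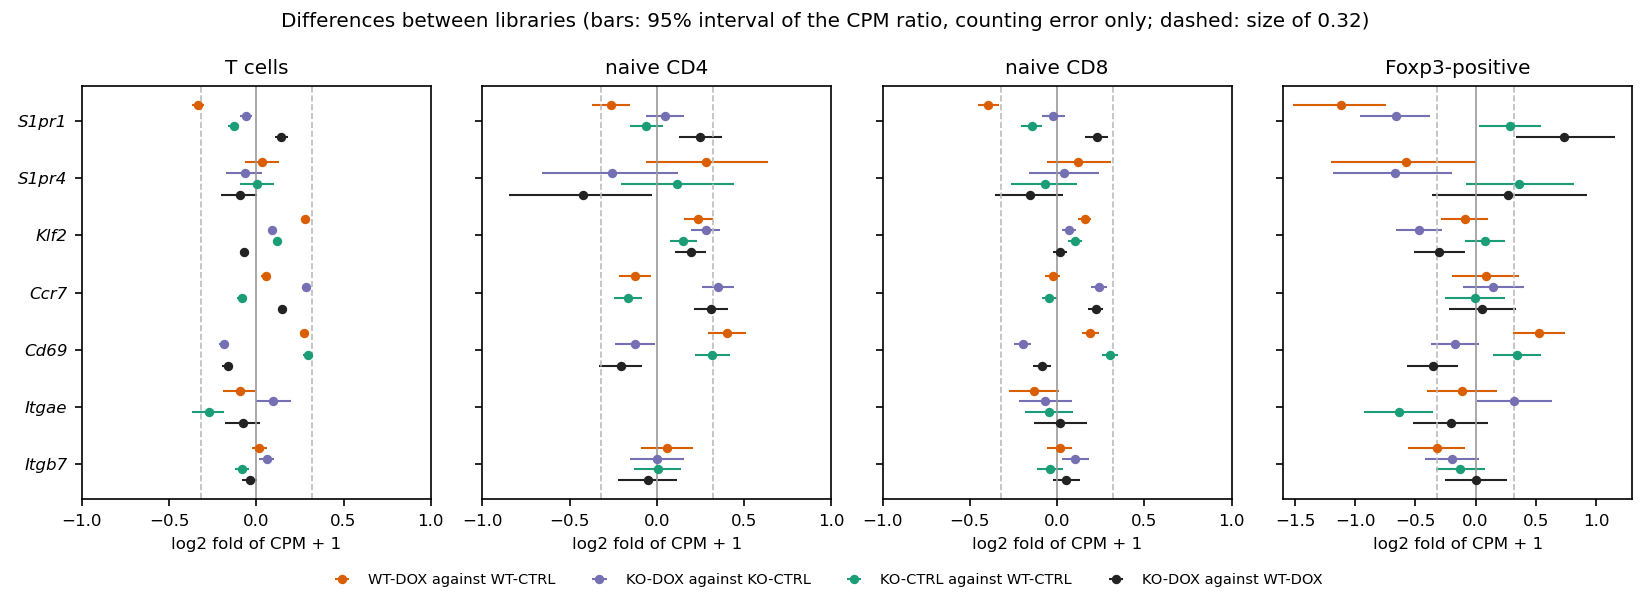
Log2 of the ratio of CPM + 1 between libraries (x axis) for each member in T cells and 3 gates (panels), 1 colour per comparison, with dashed lines at 0.32 and bars for the exact binomial 95% interval of the ratio, which covers counting error only. S1pr1 lies left of 0 in each panel in WT-DOX against WT-CTRL, intervals are widest in Foxp3-positive cells (whose x axis is wider), and Itgae in naive CD4 cells, under 10 CPM, is not drawn.

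The lower S1pr1 of WT-DOX was also seen in the naive CD8 gate, where it was the 1 member of 7 past the size, at -0.39 (-0.46 to -0.33), with 5.46% of all genes past it. It was lower both in naive CD8 cells without a Cd69 UMI, at 331 against 445 CPM (-0.43), and in those with one, at 275 against 353 CPM (-0.36). In naive CD4 cells S1pr1 was lower at -0.26 (-0.37 to -0.15), under the size. In Ccl5-positive CD8 cells it was at -0.10 (-0.32 to 0.13), an interval that reached 0. In the other comparisons of naive CD8 cells 0 of 7 members passed, with 3.52% of all genes past the size in KO-DOX against KO-CTRL, 3.94% in KO-CTRL against WT-CTRL and 3.89% in KO-DOX against WT-DOX.

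S1pr1 was lower in Foxp3-positive cells of both doxorubicin libraries, at -1.12 (-1.52 to -0.74) in WT-DOX against WT-CTRL and -0.66 (-0.96 to -0.38) in KO-DOX against KO-CTRL. Over the alternatives the first ranged from -1.13 to -0.86 and the second from -0.70 to -0.59. Each library held only 151 to 217 Foxp3-positive cells, and much of the transcriptome passed the size there. In WT-DOX against WT-CTRL 4 of 7 members passed (also S1pr4 at -0.58, Cd69 at 0.53 and Itgb7 at -0.33), with 36.5% of all genes past it. In KO-DOX against KO-CTRL 3 of 7 passed (also S1pr4 at -0.67 and Klf2 at -0.47), with 36.7% past it. In KO-CTRL against WT-CTRL 3 passed (Itgae at -0.64, S1pr4 at 0.36 and Cd69 at 0.34), with 32% past it. In KO-DOX against WT-DOX 2 passed (S1pr1 at 0.74 and Cd69 at -0.36), with 41.2% past it. Counts of members near these backgrounds say nothing particular about the members.

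In naive CD4 cells 1 member passed in WT-DOX against WT-CTRL, Cd69 at 0.40 (0.29 to 0.51), with 16.2% of all genes past the size. In KO-DOX against KO-CTRL Ccr7 at 0.35 (0.26 to 0.44) and Itgae at 0.61 passed, 2 members with 15.1% of all genes past it. Itgae was under 10 CPM in every naive CD4 sum, so its folds rest on few UMIs. Itgae alone passed in KO-CTRL against WT-CTRL, at -0.43, 1 member with 13% past it. Itgae at 0.50 and S1pr4 at -0.42 passed in KO-DOX against WT-DOX, 2 members with 19.4% past it. In Ccl5-positive CD8 cells 0 members passed in WT-DOX against WT-CTRL, where 33% of all genes did. In KO-DOX against KO-CTRL 2 passed, Ccr7 at 0.42 (0.24 to 0.60) and Itgae at 0.98 (0.31 to 1.74), with 30.8% past it. In KO-CTRL against WT-CTRL 3 passed, Cd69 at 0.46 (0.32 to 0.60), S1pr4 at -0.33 and Itgae at -0.63, with 29.9% past it. In KO-DOX against WT-DOX 1 passed, Itgae at 0.66, with 32.4% past it. The S1pr4 and last Itgae values changed sign without the deepest barcodes.

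Lists of early T cell receptor response and type I interferon genes were read in the same T cell sums, among genes of at least 10 CPM. Of 9 early T cell receptor response genes, 2 passed the size upwards in WT-DOX against WT-CTRL, Dusp2 at 0.40 and Ier2 at 0.33, and the list's median was 0.16 where that of all genes was -0.018. In KO-DOX against KO-CTRL 0 passed, with a median of -0.10 where that of all genes was 0.0084. Of the type I interferon genes, 7 of 7 passed upwards in KO-CTRL against WT-CTRL, with a median of 0.82, and 5 of 7 passed downwards in KO-DOX against KO-CTRL, with a median of -0.69. In WT-DOX against WT-CTRL 2 of 6 passed downwards, with a median of -0.14. In KO-DOX against WT-DOX, where Cd69 was at -0.16 (-0.19 to -0.14), 3 of 9 early response genes passed downwards and 4 of 6 interferon genes passed upwards. In KO-CTRL against WT-CTRL, where Cd69 was at 0.29, the early response median was -0.0092 and that of all genes 0.00058. The comparisons share libraries, so signs of Cd69 and of the lists are not tallied over them. The part of either list in the Cd69 levels was not tested.

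The genes whose levels were most like each member were found over the 16 gate sums, among 4462 genes of at least 50 CPM in at least 1 sum, members and gating genes left out. They included Usp3 (r = 0.95), Wasl (r = 0.95) and Retreg3 (r = 0.95) for S1pr1, Cdc25b (r = 0.87), Zcchc17 (r = 0.86) and Ndufc1 (r = 0.85) for S1pr4, Smurf2 (r = 0.97), Saraf (r = 0.97) and Pik3ip1 (r = 0.96) for Klf2 and Gm48228 (r = 0.97) and Saraf (r = 0.96) for Ccr7. For Cd69 they included Arl6ip5 (r = 0.88) and Rpl18 (r = 0.88), for Itgae Gprin3 (r = 0.94), Cyth4 (r = 0.91) and Icam1 (r = 0.90), and for Itgb7 Tdp2 (r = 0.95), Ube4b (r = 0.94) and Rtcb (r = 0.94). Here r is Pearson's correlation of log2(CPM + 1), and the sums share libraries and gates.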

How the data were processed

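Counts of UMIs per gene and barcode were deposited by the authors for 4 single-cell 5' libraries, as raw counts that are not normalized. The build named in the submitters' processing notes is mm10. Aligner and cell calling were not given in the sources used here. Members, gates and gene lists were chosen with earlier results of these data known.

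A minimum of 300 genes and a mitochondrial share of no more than 10% left 48578 of 48597 barcodes. T cells had at least 2 UMIs over CD3 and T cell receptor constant genes and at most 1 over B cell genes. Some gating and marker genes and some genes that the naming rule picked are not reported here. No doublet caller was run, and an alternative left out the deepest 5% of barcodes. UMIs were summed per library and gate. Gates and splits were tested with edgeR 4.0.16 (TMM, filterByExpr, quasi-likelihood, adjusted p under 0.05, library as block), with DESeq2 1.42.0 as an alternative, in R 4.3.3. Whether the 4 libraries come from separate mice is not stated. The p-values measure how differences between cell sets vary over these libraries, with the library effect taken out by the block. Libraries were compared with no test, with a pseudocount of 1 CPM. For equal depth each cell was drawn down to 2000 UMIs and shallower cells were left out. Other alternatives were scaling factors, a filter on low counts, a stricter cell filter (800 genes, 5%), other gates, an equal cell mix, an equal weight per cell and a pseudocount of 5 CPM. Leaving out shared barcodes and scaling by total UMIs were added after seeing the data. The test was tested on simulated data for Ccl5-positive against naive CD8 cells. With 100 genes changed by 0.5 on the log2 scale 83 were called, with 100 changed by 1 all 100 were, and of 9106 unchanged genes 8 were. Unchanged genes had the same mean in every gate, with a fixed spread and no effect of library. Only genes above a floor of expression were changed, so these shares need not hold for low genes, the splits or the real contrasts. Named genes were the 7 members, the 3 genes most like each in level, and listed genes past the test or size, at most 4 per list and comparison. Gene positions are from GENCODE M21 for GRCm38. Python 3.11.15, numpy 2.4.6, scipy 1.17.1, pandas 2.3.3 and matplotlib 3.10.9 were used.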

Additional observations from a re-analysis of the deposited data

Results flagged for a closer look

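The doxorubicin response had opposite signs in the 2 genotypes for 17 of 35 pairs of a member and a cell set. The share over all genes was not computed, so this count is not read as a result about the members. The T cells contain the cells of the gates, so the pairs of a member are not separate. In 4 of the 17 pairs, 3 of Cd69 and 1 of Ccr7, the counting intervals of both responses left out 0. With 1 library per group the difference between the responses was not tested. In T cells Cd69 was higher with doxorubicin in the control genotype, at 0.28 on the log2 scale, and lower in the PD-L1 knockout, at -0.18, a difference of -0.46. In naive CD4 cells the Cd69 responses were 0.40 and -0.12, a difference of -0.53, and in naive CD8 cells 0.19 and -0.20, a difference of -0.39. Ccr7 in naive CD4 cells was lower with doxorubicin in the control genotype, at -0.13, and higher in the knockout, at 0.35, a difference of 0.47. In the others at least 1 interval reached 0. They include Cd69 in Foxp3-positive cells, at 0.53 and -0.17, and in Ccl5-positive CD8 cells, at 0.12 and -0.25, so that Cd69 had opposite signs in all 5 cell sets, and Itgae in Ccl5-positive CD8 cells, at -0.31 and 0.98.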

How the results depend on the processing

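No sample is repeated, so differences between libraries have counting error only, and low UMI numbers limit S1pr4 and Itgae most. Across the alternatives, 721 member changes in the edgeR fits kept their side of the threshold, 59 lost and 14 gained a call, and 6 that had been called changed sign. Sign changes of members not called were not counted. Of member folds between libraries, 1177 moved by less than their counting interval, 45 moved by more and 3 changed sign. The numbers below are members called unless genes are named, and the cause of each change was not tested. Without the deepest 5% of barcodes, 8 of 28 T cell levels stayed in their own interval, and the Foxp3-positive against naive CD4 contrast called 4 in place of 7. In WT-DOX against WT-CTRL 0 in place of 1 passed with median-of-ratios scaling and with an equal mix of cell sets, and 2 in place of 1 differed in doxorubicin response with each cell weighted equally. Cd69 splits, main call first, gave 2, then 1 with DESeq2, 0 thinned, 1 without the deepest barcodes and 1 with no replicate block in naive CD4, 2, then 1, 0, 1 and 0 in naive CD8, and 3, then 1 with DESeq2, 0 thinned, 0 without the deepest barcodes and 1 with no filter on low counts in Foxp3-positive cells. In Ccl5-positive CD8 cells they gave 0, then 1 with at least 2 UMIs against 0, 1 with no filter and 1 scaled by total UMIs. The Itgae split of naive CD8 cells gave 4, then 2 with at least 2 UMIs against 0, 1 thinned and 0 with no replicate block. The library is the block, since replicate numbers do not pair the samples.

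Genes called changed by over 1.5 times as follows. Ccl5-positive against naive CD8 gave 3776, then 1822 thinned and 2286 without the deepest barcodes, and Foxp3-positive against naive CD4 gave 5591, then 2826 and 3123. The Cd69 splits gave 609 in naive CD4 (82 with DESeq2, 34 thinned, 123 without the deepest barcodes, 271 with no replicate block), 563 in naive CD8 (143, 63, 142 and 144), 150 in Ccl5-positive CD8 (50, 13, 2 and 81) and 604 in Foxp3-positive cells (158, 13 and 10, the first 3 settings). The Itgae splits gave 394 in Foxp3-positive cells (158 with DESeq2) and 931 in naive CD8 cells (288 with DESeq2, 280 thinned, 123 with no replicate block). Sign changes of called members, and of folds of 0.32 or more between libraries, were as follows. Thinned, Klf2 in the Cd69 splits went to 0.23 in Foxp3-positive, 0.059 in naive CD4 and 0.065 in naive CD8 cells, and to 0.015 in the last without the deepest barcodes. Thinned, S1pr1 in the Cd69 split of Foxp3-positive cells went to 0.058, and S1pr4 in Foxp3-positive against naive CD4 cells to -0.012. In Ccl5-positive CD8 cells without the deepest barcodes Itgae in KO-DOX against WT-DOX went from 0.66 to -0.29, and S1pr4 in KO-CTRL against WT-CTRL from -0.33 to 0.26, or to 0.077 with each cell weighted equally. Leaving out 1 library gave 0 to 1 members and 74 to 158 genes in the Cd69 split of Ccl5-positive CD8, 1 to 2 and 289 to 523 in Foxp3-positive, 2 to 2 and 355 to 537 in naive CD4, and 1 to 2 and 373 to 433 in naive CD8 cells. It gave 3 to 3 members and 195 to 415 genes in the Itgae split of Foxp3-positive cells, and 3 to 3 and 518 to 870 in that of naive CD8 cells. Between gates it gave 5 to 7 and 4990 to 5223 for Foxp3-positive against naive CD4, 6 to 6 and 3010 to 3515 for Ccl5-positive against naive CD8, and 5 to 5 and 2151 to 2453 for naive CD8 against naive CD4.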
